A study of Mus musculus with 8 samples.

Results

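miR-101a and miR-101b, annotated on the array as mmu-miR-101a and mmu-miR-101b, are 2 of the 567 mouse miRNAs with probes on the arrays of this study. They were taken by name from that annotation. They were chosen by their difference in processed intensity between diabetic and control muscle, seen in an earlier look at these arrays. The values of that contrast are therefore given below as a description, with no test. The arrays are Agilent miRNA arrays read in a single colour, Cy3, each loaded with 100 ng of skeletal muscle RNA, and 4 are titled control and 4 diabetic. The design text names obese diabetic C57BL/KsJ db/db mice, in which the leptin receptor does not work, and C57BL/KsJ db+ mice as normal controls. The strain entry of each sample states the reverse, db/db for the control arrays and db+ for the diabetic arrays, so the groups follow the titles, descriptions and group entries. The age of the mice and the muscle taken are not given in the sources used here, and the labels do not say whether each array is a separate animal, so any p-value below measures only the spread between these samples.

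miR-101 is a conserved miRNA family processed from hairpins, and its guide strand, the 3p strand, is the form usually called miR-101. Its best known target is the mRNA of Ezh2, the histone methyltransferase of Polycomb repressive complex 2, which in muscle precursor cells keeps differentiation genes silent. Dnmt3a, a DNA methyltransferase, is another published target. A miRNA recognises most of its targets through its seed, the bases 2 to 8 from its 5′ end. The array names miR-101a and miR-101b carry no strand suffix and were read as the 3p strands, since the array lists the other strand of the first hairpin separately as miR-101a*.

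The mature sequences show how nearly the members coincide, and are given 5′ to 3′ from RefSeq (GRCm38.p6) with bases 2 to 8 in capitals.
miR-101a-3p: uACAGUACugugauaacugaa
miR-101b-3p: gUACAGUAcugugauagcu
miR-101c: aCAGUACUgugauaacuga
miR-144-3p: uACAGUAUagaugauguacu
The RefSeq entry of miR-101b starts 1 base earlier than that of miR-101a and is 19 bases long against 21, so its bases 2 to 8 are shifted by 1. When the entries were aligned, 17 of 18 shared bases were identical, and the single difference was A16G, counted from the 5′ end of miR-101a with the base of miR-101a first. Of 1679 mature mouse miRNA names in the table, 3 hold acaguac within their first 9 bases: miR-101a-3p, miR-101b-3p and miR-101c. miR-144-3p, a miRNA of red blood cell precursors, shares bases 2 to 7 with miR-101a and departs at base 8. No probe on the array is named for miR-101c.

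The hairpins show where the difference sits, and are given with the 3p strand in capitals.
Mir101a: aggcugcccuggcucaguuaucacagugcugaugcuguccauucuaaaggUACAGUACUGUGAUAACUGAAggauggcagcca
Mir101b: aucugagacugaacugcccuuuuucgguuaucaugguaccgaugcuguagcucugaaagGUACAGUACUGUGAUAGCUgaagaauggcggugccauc
In RefSeq's GRCm38.p6, Mir101a lies at chr4:101346945-101347027 on the minus strand, within the span of the long noncoding RNA gene E130102H24Rik. Mir101b lies at chr19:29135279-29135375 on the plus strand, within the span of the protein-coding gene Rcl1. The Mir101b hairpin continues past its annotated 3p strand with bases that match miR-101a, so that over the 21 bases of miR-101a the hairpins again differed only by A16G. The other strands of the hairpins are less alike, with 5 differing bases in 22.

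Each member had 2 probes with 10 spots per probe on every array. The intensities are the scanner software's processed signals after background subtraction. They carry no normalization between arrays, and 0 spots of mouse miRNAs were saturated. Without any scaling, the mean intensity of miR-101a was 41.9, 99.6, 95.3 and 69.1 on control 1 to control 4. On diabetic 1 to diabetic 4 it was 129, 207, 182 and 73.0. Control 1 was the lowest array, and diabetic 4 lay below control 2 and control 3, so the unscaled groups overlapped. For miR-101b the same mean was 4.65, 12.5, 9.48 and 7.82 on control 1 to control 4, and 20.7, 28.3, 20.3 and 6.46 on diabetic 1 to diabetic 4. Here diabetic 4 was below all control arrays except control 1. Diabetic 4 was also the dimmest array as a whole, with a 75th percentile of 219, and control 2 the brightest, with 618. The other 6 arrays lay between 308 and 479.

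The probes of miR-101a behaved alike and stood clear of background. Probe A_54_P2268 had 36 of 36 used control spots and 37 of 37 used diabetic spots well above background, and its spots varied by a median of 7.20% (coefficient of variation within an array). For A_54_P4365 the counts were 36 of 36 and 38 of 38, and the median variation was 9.82%. The log2 ratio of A_54_P2268 to A_54_P4365 within an array ran only from −0.35 to −0.055 over the 8 arrays. The group differences of these probes after scaling were 1.07 and 0.99 (log2, diabetic minus control). Within an array the spots of either probe varied by 3.48% to 18.5%.

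The probes of miR-101b did not behave alike. A_54_P2593 had 0 of 39 used control spots and 0 of 39 used diabetic spots well above background, and on all 8 arrays its mean lay less than 2 SD above the negative control spots. Its mean intensity ran from −0.87 to 1.39 on the control arrays and was 6.47, 8.87, 5.51 and −0.81 on diabetic 1 to diabetic 4. Since this probe was not well above background in either group, no fold is given for it. The signal of miR-101b came from A_54_P2594, with 15 of 38 control spots and 31 of 37 diabetic spots well above background. Its mean intensity was 10.2, 24.0, 17.6 and 15.1 on control 1 to control 4, and 34.9, 47.7, 35.0 and 13.7 on diabetic 1 to diabetic 4. Control 1 had 0 spots of this probe well above background and diabetic 4 had 1 of 7, the fewest in their groups. The spots of A_54_P2594 varied by a median of 19.1%, so single arrays fix miR-101b less well than miR-101a.

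**Figure D1:**
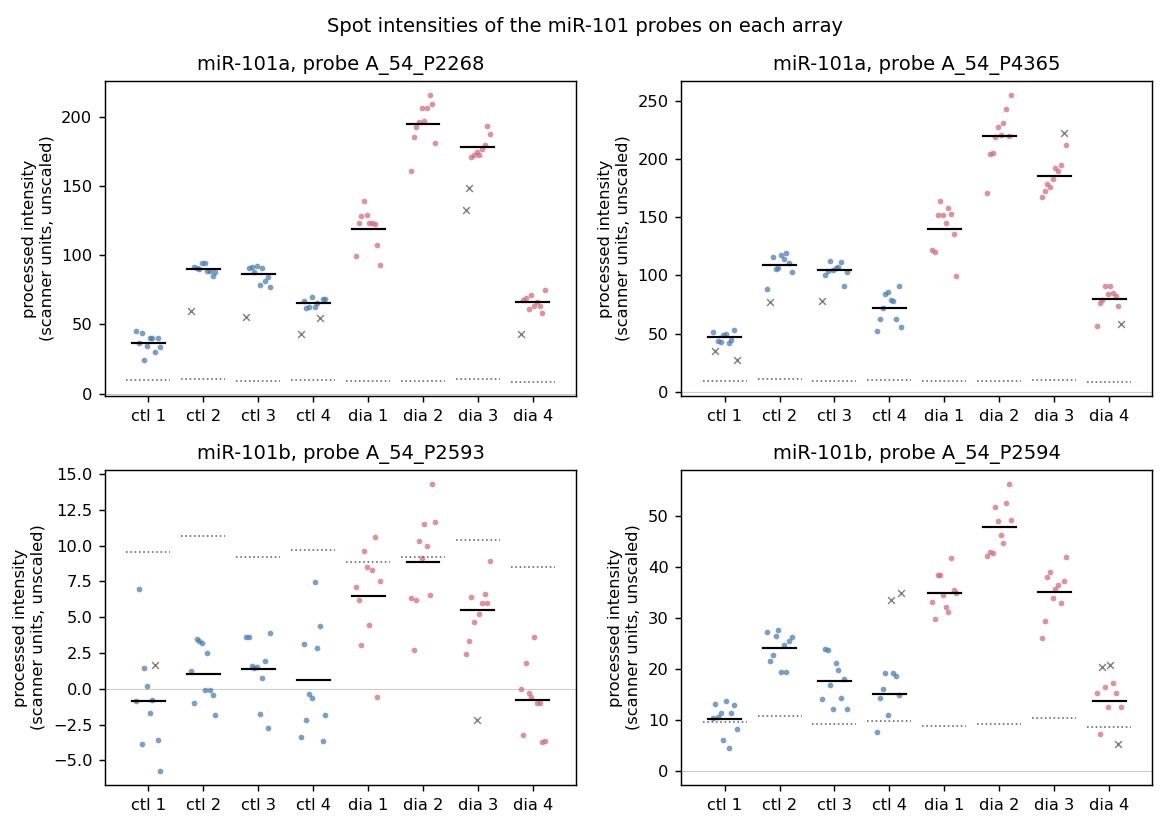
Processed intensity (scanner units, unscaled) of each spot of the 4 miR-101 probes on the 4 control (ctl, blue) and 4 diabetic (dia, red) arrays. Black bars are means of the used spots, grey crosses are outlier spots left out, and dotted lines mark the mean plus 2 SD of the negative control spots. Both miR-101a probes lie above the dotted line on every array, A_54_P2593 of miR-101b has its mean below it on all 8 arrays, and the mean of A_54_P2594 lies above it.

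For scaling, intensities were divided by the 75th percentile of the same array, taken over 152 probes with detection on every array, and the probes of a miRNA were averaged and converted to log2. A level of 0 on this scale equals the array's 75th percentile. The log2 level of miR-101a was −2.88 on control 1, −2.63 on control 2, −1.82 on control 3 and −2.24 on control 4. On diabetic 1 to diabetic 4 it was −1.47, −1.21, −1.18 and −1.59. The groups did not overlap, and the gap between control 3 and diabetic 4 was 0.23. The group means were −2.39 ± 0.46 and −1.36 ± 0.20 (SD, n = 4), a difference of 1.03 or 2.04-fold. The gap between the nearest arrays was smaller than the control SD, and the control arrays spread more than the diabetic ones.

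The log2 level of miR-101b was −5.95, −5.62, −5.15 and −5.38 on control 1 to control 4, and the first of these lies at the floor set for low levels. On diabetic 1 to diabetic 4 it was −4.12, −4.08, −4.35 and −5.09. Diabetic 4 lay just above control 3, with a gap of 0.06, and the other 3 diabetic arrays stood apart from it. The group means were −5.53 ± 0.34 and −4.41 ± 0.47 (SD, n = 4), a difference of 1.12 or 2.17-fold. The probe level passed the detection rule on control 2 alone among the controls and on all diabetic arrays except diabetic 4, so this fold is of uncertain size. When the log2 values of both probes were averaged instead, so that the probe at background counted fully, the difference was 0.49. After normexp background correction it was 0.25. The groups of miR-101b overlapped in 6 of the 11 alternatives that change the levels themselves, among them quantile normalization, normexp and the scanner's own total signal. For A_54_P2594 alone the log2 level was −4.58 ± 0.29 on the control and −3.56 ± 0.31 on the diabetic arrays (SD, n = 4), a difference of 1.01 without overlap of the groups.

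**Figure D2:**
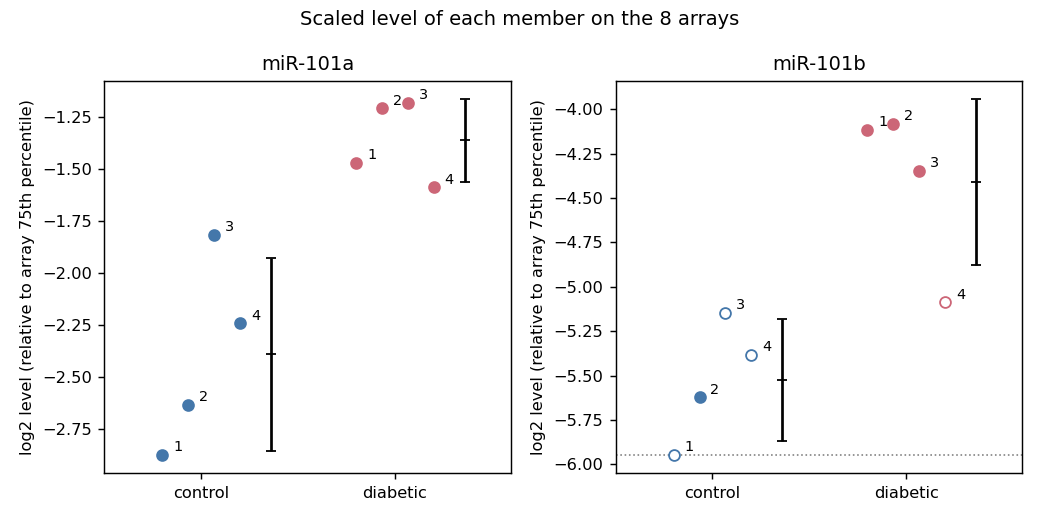
Log2 level of miR-101a and miR-101b relative to the array's 75th percentile on the 4 control and 4 diabetic arrays, numbered by replicate. Filled points passed the detection rule, open points did not, bars give the mean ± SD of each group, and the dotted line is the floor at −5.95. Every diabetic array lies above every control array for both members, by 0.23 for miR-101a and by 0.06 for miR-101b.

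The place of each member among the 126 tested miRNAs of an array does not change with the array's scaling factor and was compared between arrays only. miR-101a ranked 72, 63, 49 and 65 from the top on control 1 to control 4, and 47, 35, 33 and 48 on diabetic 1 to diabetic 4. It ranked higher on each diabetic array than on any control array, although control 3 and diabetic 4 were next to each other. The ranks restate the contrast for which the members were chosen. How many of the 126 separate the groups by rank was not counted, so nothing is read from this. miR-101b ranked between 114 and 125 on the control arrays and between 92 and 113 on the diabetic arrays, with diabetic 4 again close to control 3. These ranks rest on a level at the floor on control 1 and not detected on control 3, control 4 and diabetic 4, so their order is loose.

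In a limma comparison of all 126 tested miRNAs, 6 (4.76%) passed an adjusted p of 0.05, all of them higher on the diabetic arrays. With other array scalings this split changed, to 8 higher and 1 lower with the percentile over every mouse probe and to 5 higher and 2 lower with the median, and 10 of 24 alternatives held lower calls. The count was 2 without control 1, control 2, diabetic 1, diabetic 2 or diabetic 3, and 10 without control 3. Both members were among the 6, which is how they came to be chosen, and nothing is read from it. The groups did not overlap in 11 of the 126 (8.73%), and in 10 of them (7.94% of those tested), the members included, the diabetic arrays were the higher ones. The median difference over the 126 was −0.06 (log2). Relative to it, miR-101a was 1.09 and miR-101b 1.18 higher on the diabetic arrays. When the scaling percentile came from every mouse probe, the median of all tested miRNAs moved up by 0.32. A new scaling factor shifts all levels of an array alike above the floor, so miR-101a stayed at 1.09 relative to that median by construction. miR-101b was 1.15 higher, a change through the floor alone. Quantile normalization is not bound in this way. With it the median moved up by 0.15, and the members were 1.08 and 1.25 higher relative to that median. With normexp background correction they were 0.63 and 0.24 higher than the median of that setting. The mean of probe log2 values gave 1.06 and 0.52, and subtracting the negative control mean gave 1.13 and 1.54. Without scaling the group means of miR-101a still differed by 0.92, but the groups overlapped, as the intensities above show. The control arrays filled slide row 1 and the diabetic arrays slide row 2, so row and group cannot be told apart. Control and diabetic arrays of the same number shared a slide column. Within columns 1 to 4 the difference of miR-101a was 1.41, 1.42, 0.63 and 0.65, and that of miR-101b was 1.83, 1.54, 0.80 and 0.30, so both were larger in the first pair of columns.

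**Figure D3:**
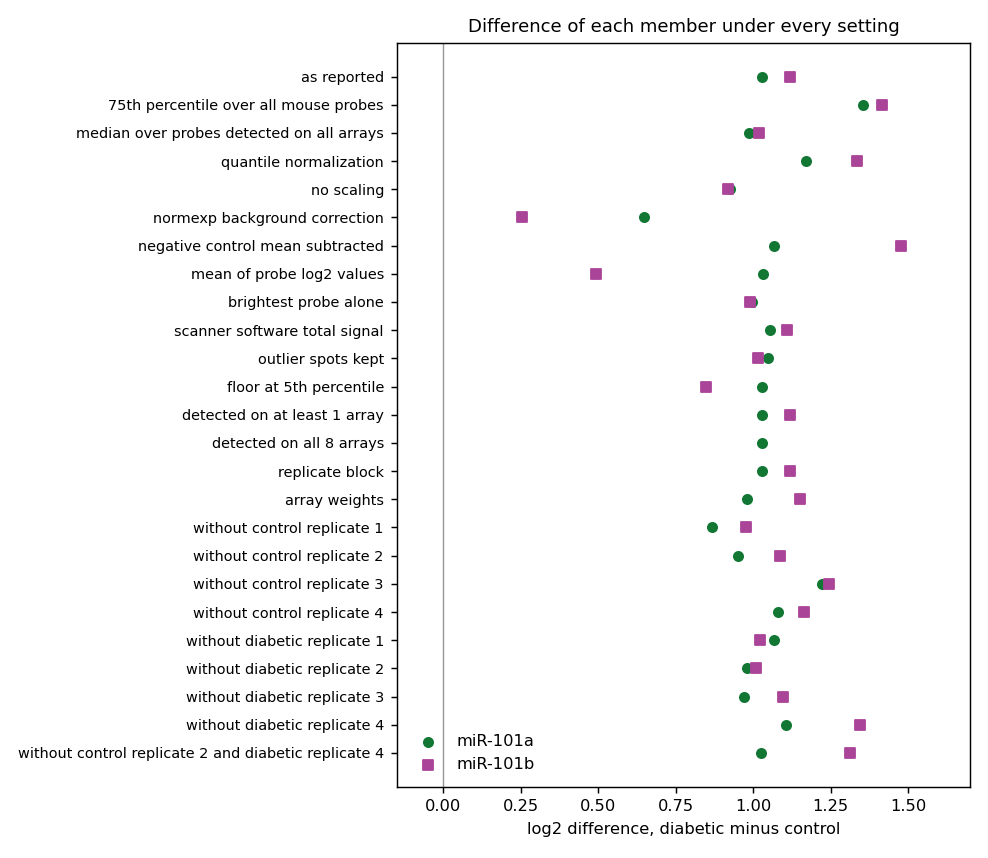
Log2 difference of miR-101a (circles) and miR-101b (squares), diabetic minus control, under the reported setting and each alternative, 1 row per setting. The difference is above 0 in every row, from 0.65 to 1.35 for miR-101a over the alternatives and from 0.25 to 1.48 for miR-101b, which has no value where detection on all 8 arrays was asked for. Where arrays are left out or weighted, a difference above 0 follows from the reported groups not overlapping.

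Relative to each other within an array, the members did not differ between the groups beyond the spread of the arrays in the reported setting. The log2 level of miR-101b minus that of miR-101a was −3.07, −2.99, −3.33 and −3.14 on control 1 to control 4, and −2.65, −2.87, −3.16 and −3.50 on diabetic 1 to diabetic 4. Its size depends on how strongly each probe binds, so only its change between arrays is read. The group means were −3.13 ± 0.14 and −3.05 ± 0.37 (SD, n = 4), and the difference of 0.09 was smaller than either SD. Both members were chosen by their difference between the same groups, so a small value here was partly set by that choice. On control 1 the value uses a miR-101b level at the floor. From diabetic 1 to diabetic 4 the value spanned its whole range over the 8 arrays, so the distance was not constant. The group difference was −0.54 with the mean of probe log2 values, −0.39 with normexp and 0.41 with the negative control mean subtracted, so its direction depends on how the dim probe and the background are treated. With A_54_P2594 alone in place of both miR-101b probes, the group means were −2.18 ± 0.18 and −2.20 ± 0.24 (SD, n = 4), and single arrays lay between −2.44 and −1.89. Whether this probe also binds miR-101a, from which miR-101b differs by the substitution shown above, was not tested, and the probe sequences were not used here.

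After the mean of its group was removed from each array, miR-101a and miR-101b correlated over the 8 arrays with a Pearson r of 0.74 and a Spearman rho of 0.76. These values are a description without a p, since the arrays share 1 slide and 1 scan and the level on control 1 is at the floor. Without control 1 and control 3, the arrays farthest from the median of miR-101a, r was 0.62 over 6 arrays. The median r of miR-101a with the other 125 tested miRNAs was −0.10 on the same measure. miR-101b ranked 7 of these 125 for miR-101a, and miR-101a ranked 4 of 125 for miR-101b, so the pair did not hold the highest r. For miR-101b the first was miR-206, a myogenic miRNA of skeletal muscle (r = 0.94, chosen after its values were seen). With the group means left in, the r of miR-206 with miR-101b was −0.23. Between the groups miR-206 differed by −1.33 (log2, diabetic minus control), with a limma adjusted p of 0.132 (SE 0.44). With the floor raised to the 5th percentile of detected levels the r of miR-101a with miR-101b was 0.37, and with normexp it was 0.51.

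**Figure D4:**
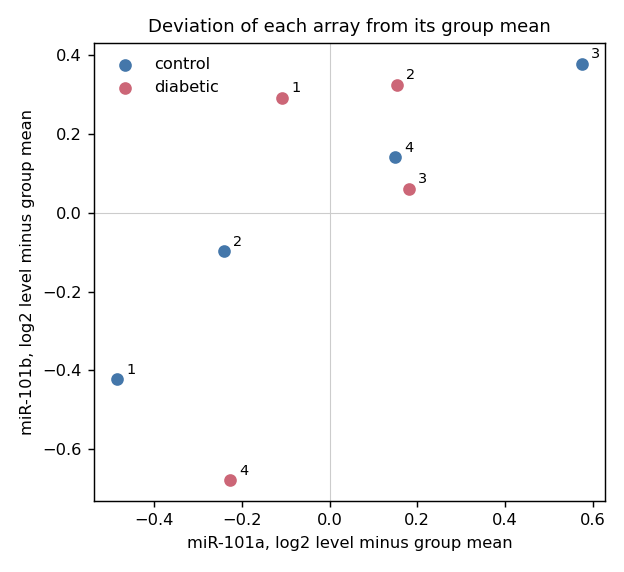
Log2 level minus the group mean of miR-101a (horizontal) and miR-101b (vertical) on each of the 8 arrays, numbered by replicate, control in blue and diabetic in red. Control 3 is high and control 1 low in both members, and diabetic 4 is low in both, with r = 0.74 over the 8 arrays.

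The other strand of the first hairpin was not detected. miR-101a* is the 5p strand, which is usually degraded after processing, and it had 4 probes and 20 spots per array. Of these spots 0 were well above background on the 8 arrays, and the probe means ran from −5.66 to 1.49 in intensity, against negative control means of 2.21 to 4.21. The array holds no probe named miR-101b*. miR-144, the relative that shares bases 2 to 7 with miR-101a, was detected on control 2 alone. Its mean intensity there was 45.0, against 0.55, 8.12 and 5.74 on control 1, control 3 and control 4. On the diabetic arrays it was 2.67, 5.78, 11.2 and 4.03 for diabetic 1 to diabetic 4. The array on which miR-144 was bright had the second lowest scaled level of both members, and miR-144 had too few detections for a test.

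Other miRNAs with Ezh2 among their published targets did not pass the limma test between the groups. Of the 5 in the list, miR-138 and miR-124, which are best known from neurons, were detected on 0 arrays. Among the 3 that were tested 0 were called in either direction, with a median log2 difference of 0.27 against −0.06 over all 126 tested miRNAs. As 6 of the 126 (4.76%) were called, 0 of 3 says little about this list. miR-26a, abundant in muscle and active in myogenic differentiation, went from 0.0012 ± 0.33 to 0.42 ± 0.085 in log2 level (SD, n = 4). That difference of 0.41 had a limma adjusted p of 0.391 (SE 0.21). miR-26b, of the same family, differed by 0.27 in log2 level (diabetic minus control), with a limma adjusted p of 0.627 (SE 0.19). Its log2 level was −1.73, −1.72, −1.34 and −1.35 on control 1 to control 4 and −1.33 to −1.23 on the diabetic arrays, so the groups lay next to each other without overlap. miR-214, which is expressed in stromal cells and in developing muscle, differed by −0.54 (diabetic minus control), with a limma adjusted p of 0.430 (SE 0.31).

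Among 4 miRNAs with Dnmt3a among their published targets, 2 rose and 0 fell, with a median log2 difference of 0.88. Over all tested miRNAs 6 of 126 (4.76%) were called. The list was written with the rise of the miR-29 family in these arrays known, so its count is not independent evidence. miR-29c rose from 0.22 ± 0.27 to 1.47 ± 0.074 in log2 level (SD, n = 4), by 1.25 with a limma adjusted p of 0.00642 (SE 0.20). For miR-29b the rise was 0.99, with a limma adjusted p of 0.0283 (SE 0.22), and its call ended when control 1, control 2 or any single diabetic array was left out, with log2 differences of 0.88 to 1.01 and limma adjusted p of 0.0555 to 0.108. The value of miR-29a was 0.76, with a limma adjusted p of 0.0581 (SE 0.21). miR-143, a miRNA of smooth muscle, differed by −0.03 with a limma adjusted p of 0.940 (SE 0.26), and the sign depended on the scaling and on single arrays.

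The tested miRNAs whose log2 levels followed miR-101a most closely over the 8 arrays were miR-29b (r = 0.96), miR-193 (r = 0.95), miR-26b (r = 0.92), miR-29c (r = 0.91) and miR-338-3p (r = 0.91). miR-101b itself stood at r = 0.93. These coefficients contain the group difference for which the members were chosen, and they are given as a description without a p. With the group means removed they became 0.85 for miR-29b, 0.79 for miR-193, 0.89 for miR-26b, 0.64 for miR-29c and 0.76 for miR-338-3p. The log2 level of miR-193 was −2.25, −2.60, −1.46 and −1.90 on control 1 to control 4 and −1.08 to −0.73 on the diabetic arrays. It rose by 1.16 with a limma adjusted p of 0.0283 (SE 0.26), and its call ended without control 1, without control 2 or without any single diabetic array, with log2 differences of 0.98 to 1.23 and limma adjusted p of 0.0530 to 0.102. miR-338-3p ran from −3.40 to −1.86 on the control arrays and from −1.67 to −0.48 on the diabetic arrays, a mean change of 1.41 with a limma adjusted p of 0.0581 (SE 0.38). On control 3 miR-101a, miR-29b, miR-193 and miR-29c all had their highest control level. For miR-101b the closest miRNAs other than miR-101a were miR-29b (r = 0.88), miR-29c (r = 0.86) and miR-26b (r = 0.84). Their r fell to 0.52, 0.34 and 0.67 with the group means removed. miR-24-1*, chosen after its values were seen, had the highest r to miR-101a on that measure, 0.97.

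**Figure D5:**
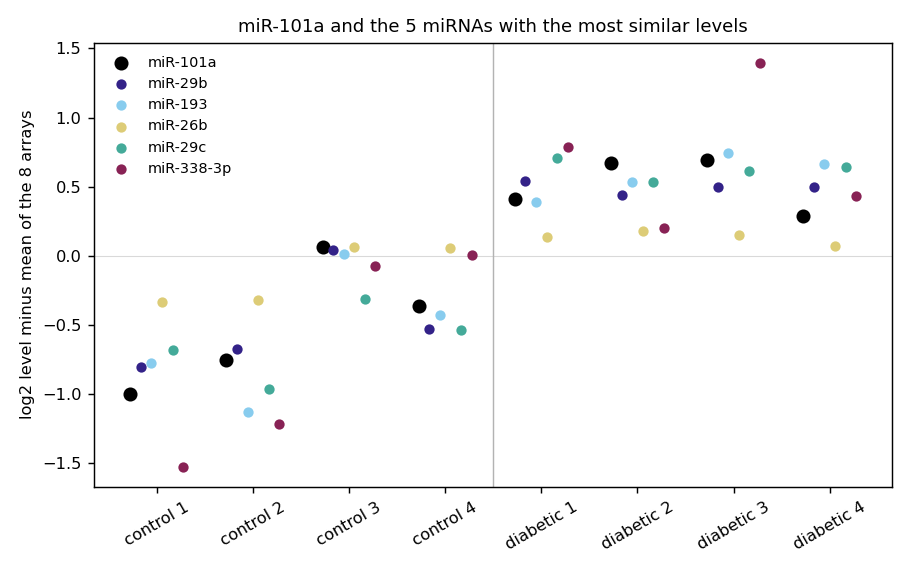
Log2 level minus the mean of the 8 arrays for miR-101a (large black points) and the 5 tested miRNAs with the highest r to it, by array, with the control arrays left of the vertical line. miR-29b, miR-193 and miR-29c lie near miR-101a on most arrays, and miR-26b spans a smaller range, from −0.33 to 0.18.

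The tissue label was checked with miRNAs of known cell types, as summed levels relative to the array's 75th percentile. Of 6 skeletal muscle miRNAs 5 were tested and miR-499 was detected on 0 arrays. Their summed level was 52.7 to 103 on the control arrays and 77.9 to 107 on the diabetic arrays, and 0 passed the limma test. As 6 of 126 tested miRNAs (4.76%) passed, counts of 0 in lists this short say little. Of 6 leukocyte miRNAs 3 were tested, 0 passed and miR-150 was detected on 0 arrays, with summed levels of 0.383 to 2.09 on the control and 0.215 to 0.670 on the diabetic arrays. The 3 tested had a median log2 difference of −0.80, against −0.06 over all tested miRNAs. miR-142-3p was detected on 3 control and 0 diabetic arrays and miR-142-5p on 1 and 0, too few for a test. The control maximum of 2.09 came from control 2. There miR-223 was at 1.73, against 0.567, 0.239 and 0.287 on control 1, control 3 and control 4. miR-342-3p, a leukocyte miRNA, had log2 levels of −2.85, −3.42, −3.66 and −3.31 on control 1 to control 4 and of −3.85, −4.25, −4.26 and −4.07 on diabetic 1 to diabetic 4. Every diabetic array lay below the controls, a difference of −0.80 with a limma adjusted p of 0.0611 (SE 0.23). Over the 8 arrays it ran opposite to miR-101a, with r of −0.95, and of −0.81 with the group means removed. It was chosen after its values were seen, and its r over the 8 arrays ranked last of 125. The 3 erythroid miRNAs summed to 1.54 to 2.75 and 1.03 to 1.99, with 2 tested and 0 passed. Their control maximum again came from control 2, where miR-451 was at 2.35. For fibroblasts and stroma, 3 of 4 were on the array and tested, 0 passed, and the sums were 0.376 to 0.783 and 0.361 to 0.417, with a median log2 difference of −0.54. Of the endothelial pair, 1 was tested and did not pass, miR-126-5p was detected on 0 arrays, and the sums were 1.59 to 2.65 and 1.79 to 2.45. The liver miRNA miR-122 had levels of 0.00834 to 0.126 and 0.0184 to 0.0787 and did not pass, and the neuronal pair was detected on 0 arrays. The part of these cell types in the levels of miR-101a and miR-101b was not tested, and in whole muscle fewer cells of a type and less RNA per cell cannot be told apart.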

How the data were processed

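The 8 files are scanner output. Per the file headers, spot intensities were extracted with Feature Extraction 10.5, all arrays lay on 1 slide read in 1 scan, and the array design names mm9. The deposited processed intensity is background-subtracted with spatial detrending and not normalized between arrays. The deposited flags of 0 or 1 mark outlier, saturated and well-above-background spots.

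Here outlier spots were dropped and spots averaged per probe. A probe was detected where at least 50% of its used spots were well above background, and a miRNA where any of its probes was. After scaling (given with the results), the lowest levels were set to 0.0162, which is the 1st percentile of the detected ones. The 126 miRNAs detected on at least 4 of 8 arrays entered a two-sided limma fit (version 3.58.1, R 4.3.3; lmFit and eBayes with group as the single term), with Benjamini-Hochberg adjustment over all 126. The number of arrays limits the precision. This fit was checked on simulated counterparts of the arrays.

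Members and lists were chosen with earlier results of these data known. Named besides the members were their other strands, miRNAs sharing bases 2 to 7, the Ezh2 and Dnmt3a lists, and the 5 (miR-101a) and 3 (miR-101b) miRNAs of highest r. Alternatives covered scaling, background, probe summary, outliers, floor, filter, replicate block, array weights and single arrays left out. The planned normexp step used median in place of mean signals, which these files do not hold. Figures were drawn with matplotlib 3.10.9.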

Additional observations from a re-analysis of the deposited data

Results flagged for a closer look

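The log2 of the 75th percentile by which control 2 was divided was 9.27, set apart from the other control arrays, which lay between 8.27 and 8.39. Its gap was 0.875 of the group's range, above Dixon's 95% limit for 4 samples. Without control 2 the log2 differences of miR-101a and miR-101b were 0.95 and 1.08. Such a gap appears by chance in about 1 in 20 groups. The check was run in both groups on the array scale, the number of miRNAs detected and the members with their within-array difference. It was also run on the miRNAs followed through the alternatives, so a single flag may come by chance alone.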

How the results depend on the processing

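The log2 difference of miR-101a was above 0 in 20 of 20 alternatives that changed its value, and moved by less than the replicate SD in 19; with normexp, added after the data were seen, it was 0.65. That of miR-101b was above 0 in 21 of 21 that changed its value, and was 0.25 with normexp and 0.49 with the mean of probe log2 values. Where arrays were left out or weighted, the sign was fixed, since the groups of both members did not overlap in the reported levels. Both differences were also above 0 in the 11 alternatives that change the levels themselves. With single arrays left out the ranges were 0.87 to 1.22 and 0.98 to 1.34. miR-101b minus miR-101a differed between groups by −0.39 with normexp, −0.54 with the mean of probe log2 values and 0.41 with the negative control mean subtracted, also added later; with single arrays left out it was −0.045 to 0.24. Their r, group means removed, was 0.51 with normexp and 0.37 with the higher floor (0.64 to 0.85 with single arrays left out). Among the 11 alternatives that change the levels themselves, the groups of miR-101a overlapped in 1, no scaling, and those of miR-101b in 6.

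The count of limma calls over all miRNAs, 6, was 0 without scaling (19 at an unadjusted p under 0.05), 10 with the brightest probe alone, 2 with detection on at least 1 array and 3 without both control 2 and diabetic 4. It was 2 without control 1, control 2, diabetic 1, diabetic 2 or diabetic 3 and 10 without control 3, a range of 2 to 10. With the replicate number, which equals the slide column, as a block it was 10, and the differences of the members were 1.03 and 1.12 as before. miR-338-3p then passed (limma adjusted p = 0.00591). The calls of miR-26a, miR-26b, miR-214, miR-29a, miR-29b, miR-29c, miR-143 and miR-193 did not change. miR-342-3p and miR-206 were not followed through the alternatives. Same-numbered arrays did not deviate together throughout (r of 0.21, 0.08, 0.51 and −0.29 over the tested miRNAs), so the numbers are not taken to pair samples. miR-143 changed sign with the percentile over all mouse probes (0.29), quantile normalization (0.21), normexp (0.014) and the brightest probe (0.033), ran from −0.18 to 0.13 with single arrays left out, and was −0.32 without both control 2 and diabetic 4. miR-29b and miR-193 each passed in 15 of 24 alternatives, and lost the call also without scaling and with detection on at least 1 array; miR-29c passed in 23 of 24, miR-338-3p in 8, miR-29a in 7 and miR-26a, miR-26b and miR-214 in 0. The causes of these changes were not tested. Detection on all 8 arrays gave no value for miR-101b. Signal over background limits miR-101b, whose level on control 1 is at the floor.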
